A study of Mus musculus with 12 samples.

Results

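The genes described here encode the constitutive proteasome: the subunits of the core particle, the base and the lid, their assembly factors, and the activators and the inhibitor that bind the core. They were taken as every array row whose platform annotation gave exactly 1 gene symbol that starts with Psma to Psmg and a number. The immunoproteasome genes Psmb8, Psmb9 and Psmb10 and the interferon-inducible activator genes Psme1 and Psme2 were left out. This gave 47 rows for 44 genes, of 23521 rows with 1 symbol and 33793 rows in all. The core alpha ring had 8 rows, the core beta ring 8, the base ATPases 7, the other base subunits 3, the lid 8, the assembly factors 8, and the activators and inhibitor 3. The name pattern also took in Psmc3ip and Psme3ip1, which encode proteins that interact with the products of a proteasome gene and are not subunits. Psma4, a core alpha ring gene, had no row of its own and is not analysed here. Psma5, Psmc2 and Psmg2 had 2 rows each, which were kept apart.

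The samples were CD8+ T cells from spleens of C57BL/6 mice, isolated by removing other cells and kept for 6 h in culture. The 4 groups of 3 arrays were cells given an antibody against CD3 together with IFN-4a, cells given anti-CD3 alone, mock-treated cells given PBS with IFN-4a, and cells given PBS alone. Anti-CD3 engages the T cell receptor complex, and IFN-4a is the interferon of this study of type I interferon. The labels number the replicates without naming animals or cultures. The p-values therefore describe the spread among these arrays alone, and that spread may be technical.

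The proteasome is the main protease of the cytosol and nucleus and degrades proteins that carry ubiquitin chains. Its core particle is a barrel of alpha rings, which gate the entrance, and beta rings, which hold the catalytic subunits. A regulatory particle caps the barrel: its base has a ring of ATPases that unfold the substrate, and its lid removes the ubiquitin. Dedicated chaperones build these parts, and other caps can take the place of the regulatory particle. When proteasome activity is limiting, mammalian cells raise the whole set of genes through the transcription factor encoded by Nfe2l1. Interferons induce a second set of catalytic subunits, those of the immunoproteasome. T cells stimulated through their receptor enlarge and make more protein before they divide.

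The deposited log values were read as log2. Each row was centred on its own median over the 12 arrays, so that 0 is that median and levels of different genes cannot be set side by side. Arrays of the same group correlated at 0.608 or more across rows, and arrays of different groups at 0.527 or less. The decimals of the deposited values still show which rows stood at 8 or above on all 12 arrays before centring: 33 of the 47 proteasome rows did (70.2%), against 21.4% of all rows with 1 symbol. All 6 markers of CD8 T cells were at 8 or above: Cd8a, Cd8b1 and the general T cell genes Cd3d, Cd3e, Cd3g and Thy1. Of 29 markers of other cell types, 0 were. Of the 14 dimmer proteasome rows, 6 belonged to assembly factors. These were both rows of Psmg2 and the rows of Psmg1, Psmg3, Psmg4 and Psmd9. Psma8, which in mammals encodes a testis-restricted alpha subunit, and Psmb11, which encodes the catalytic beta subunit of the thymic epithelium, were also among the dimmer rows. Fewer cells of a type and less RNA per cell cannot be told apart in bulk samples.

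The first comparison asked what anti-CD3 did in the absence of IFN-4a. Most proteasome genes rose with anti-CD3. Of the 47 rows, 35 were higher in anti-CD3 cells than in PBS cells at an adjusted p under 0.05 (limma, Benjamini-Hochberg over all rows) and 0 were lower, which is 74.5% of the rows and covers 34 genes. Over all 23521 rows, 31.4% were called in that comparison, 13.9% higher and 17.5% lower. The median log2 change was 0.50 over the proteasome rows and -0.04 over all rows. Among rows at 8 or above on all arrays, 27 of 33 proteasome rows were higher (81.8%), against 33.5% of all such rows. The median of the 47 proteasome rows lay between 0.25 and 0.29 on the 3 anti-CD3 arrays, against -0.34 to -0.19 on the 3 PBS arrays. The changes were of moderate size: the called rows ran from 0.14 to 1.23 on the log2 scale. No overlap between the 3 anti-CD3 and the 3 PBS arrays was seen in 36 rows that were higher and 1 row that was lower, where 16.9% and 24% of all rows showed the same.

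**Figure D1:**
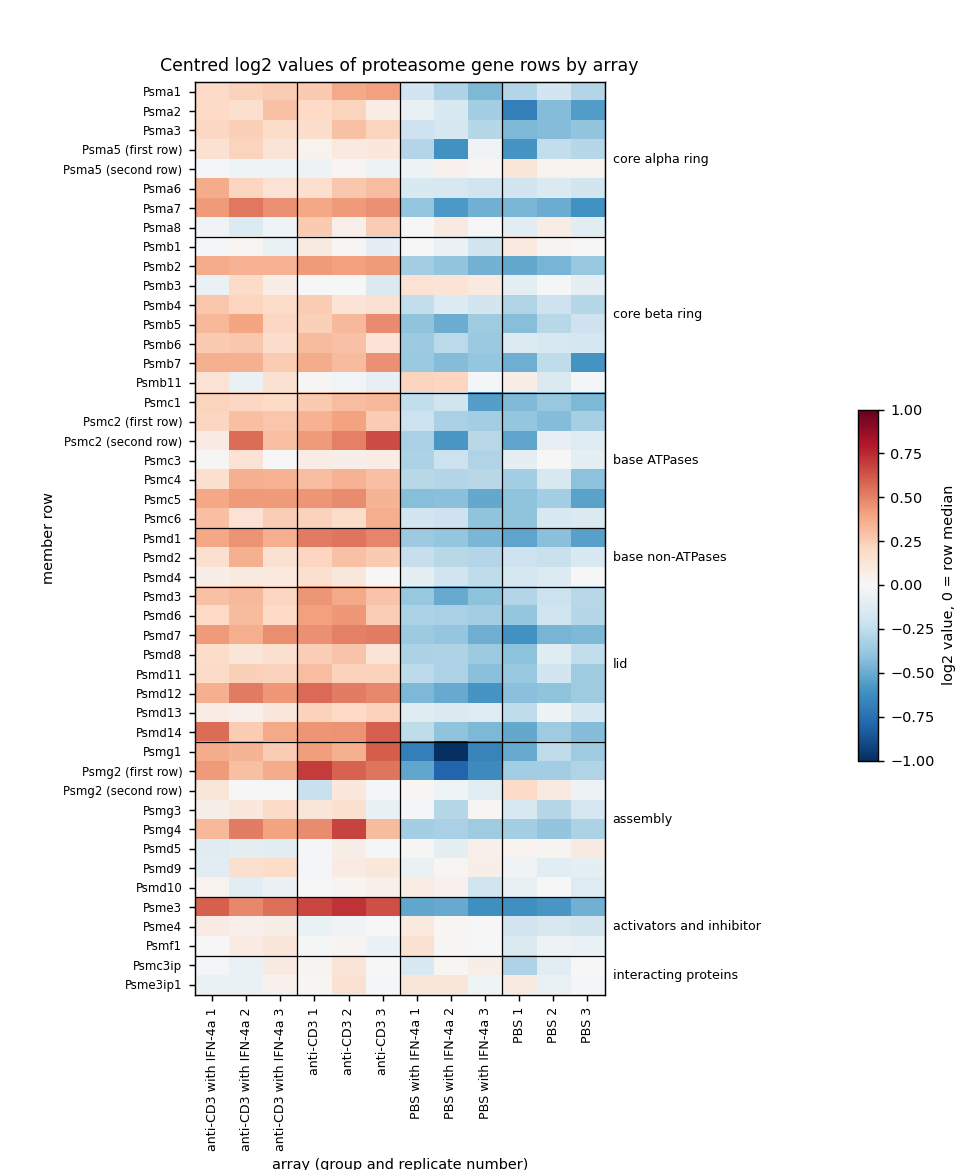
Heat map of the centred log2 value of each of the 47 proteasome rows (down) on each of the 12 arrays (across), with rows grouped by role. The anti-CD3 arrays with and without IFN-4a stand on the left in red for most rows, and the PBS arrays with and without IFN-4a on the right in blue.

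Psme3, which encodes the activator cap of the nuclear proteasome, showed the largest change. Its gene lies at chr11:101316213-101323537 of GRCm38.p6. Its centred log2 values were 0.67, 0.72 and 0.65 on the anti-CD3 arrays, against -0.61, -0.58 and -0.48 on the PBS arrays. The groups were far apart, and the change was 1.23 on the log2 scale (SE 0.06, 2.35-fold, limma adjusted p = 1.93e-09). The other cap and the inhibitor moved little. Psme4, which encodes another nuclear activator, had values of -0.07, -0.03 and -0.00 in anti-CD3 cells, against -0.19, -0.16 and -0.18 in PBS cells. It passed the threshold at 0.14 (adjusted p = 0.0387), but lost its call without any single array of either group (adjusted p up to 0.109) and without replicate 3 of anti-CD3 with IFN-4a (0.0535). Psmf1, the gene of an inhibitor of the core particle, had a change of 0.07 (adjusted p = 0.414, 95% interval -0.05 to 0.20).

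In the base, Psmd1, the gene of a large scaffold subunit at chr1:86064619-86139295, had values of 0.52, 0.54 and 0.49 in anti-CD3 cells, against -0.53, -0.42 and -0.55 in PBS cells. The change was 1.01 (SE 0.05, 2.02-fold, limma adjusted p = 6.96e-09), with no overlap. Psmd2, the other scaffold subunit of the base, rose by 0.45, and Psmd4, the gene of a ubiquitin receptor, by 0.19 (adjusted p = 0.0403). The highest PBS value of Psmd4, 0.01, lay above its lowest anti-CD3 value, -0.01. Its call was lost without replicate 1 or 2 of anti-CD3, replicate 1 or 2 of PBS, replicate 1 or 3 of anti-CD3 with IFN-4a, or replicate 2 of PBS with IFN-4a, at adjusted p up to 0.151.

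Of the 7 rows of the ATPase ring, 6 were higher, with a median change of 0.72. The largest was Psmc5, at 0.44, 0.47 and 0.34 in anti-CD3 cells, against -0.41, -0.34 and -0.53 in PBS cells, a change of 0.85 (SE 0.06, adjusted p = 1.26e-07). The 2 rows of Psmc2 gave 0.72 and 0.78. Psmc3, from the same ring, was the exception. Its values were 0.07, 0.06 and 0.07 in anti-CD3 cells, against -0.09, -0.01 and -0.09 in PBS cells, and its change of 0.13 did not pass (adjusted p = 0.1). It did after quantile normalization, at 0.16 (adjusted p = 0.0421).

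All 8 lid genes rose, with a median change of 0.64. Psmd7, whose product pairs with the lid's deubiquitinase, had values of 0.46, 0.50 and 0.52 in anti-CD3 cells, against -0.61, -0.47 and -0.45 in PBS cells (change 0.999, SE 0.06, adjusted p = 1.87e-08). Psmd14, the gene of that deubiquitinase, had values of 0.45, 0.45 and 0.60 in anti-CD3 cells, against -0.52, -0.36 and -0.44 in PBS cells, a change of 0.93 (SE 0.08, adjusted p = 8.67e-07). Neither gene's groups overlapped. The smallest change in the lid was 0.38, of Psmd13. Base and lid together had 17 of 18 rows higher.

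Because these genes moved together, the 250 bases before their start sites were read from RefSeq promoters (GRCm38.p6). The table held 36 of the 44 genes, 28 of them raised by anti-CD3 without IFN-4a and 8 not called. The letters TGANNNNGC, the core of the antioxidant response element that the products of Nfe2l1 and Nfe2l2 bind with a small Maf partner, were looked for on both strands. They were found in 35.3% of the 21262 promoters of protein-coding genes, in 9 of the 28 raised genes and in 6 of the 8 that were not called. CCAAT was found in 35.4% of the protein-coding promoters, in 10 of the 28 and in 5 of the 8. GAAA followed by any 2 bases and GAAA, the core of the interferon-stimulated response element, was found in 2.96%, in 1 of the 28 and in 2 of the 8. The percentages are of promoters, while a gene counted where any of its promoters held the motif. By promoter, TGANNNNGC was in 10 of 30 of raised genes and 6 of 9 of genes not called. CCAAT was in 10 of 30 and 5 of 9, and the third motif in 1 of 30 and 2 of 9. The genes not called include the thymic Psmb11 and, outside the subunits, Psmc3ip and Psme3ip1. Each of these held both TGANNNNGC and CCAAT. Each motif was counted whether or not it overlapped another, and a match is a description of the letters only. The promoters printed are those of the activator gene and the base subunit gene with the largest changes, of a lid gene that holds the first motif on each strand, and of Psmd5, an assembly gene with the motif that was not called. Each runs 5′ to 3′ on the strand of its gene. Capitals mark TGANNNNGC on either strand, and in Psme3 a CCAAT on the minus strand.
Psme3, chr11:101315963-101316212, plus strand: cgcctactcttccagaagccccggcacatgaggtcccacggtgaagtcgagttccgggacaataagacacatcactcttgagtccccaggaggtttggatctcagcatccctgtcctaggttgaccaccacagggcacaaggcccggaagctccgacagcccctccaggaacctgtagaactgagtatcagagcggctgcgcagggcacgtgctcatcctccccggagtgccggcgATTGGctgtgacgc
Psmd1, chr1:86064369-86064618, plus strand: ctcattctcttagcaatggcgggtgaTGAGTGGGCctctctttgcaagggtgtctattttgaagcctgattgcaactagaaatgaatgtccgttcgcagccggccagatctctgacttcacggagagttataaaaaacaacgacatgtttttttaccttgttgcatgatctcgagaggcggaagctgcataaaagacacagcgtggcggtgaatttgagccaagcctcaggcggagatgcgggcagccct
Psmd12, chr11:107479278-107479527, plus strand: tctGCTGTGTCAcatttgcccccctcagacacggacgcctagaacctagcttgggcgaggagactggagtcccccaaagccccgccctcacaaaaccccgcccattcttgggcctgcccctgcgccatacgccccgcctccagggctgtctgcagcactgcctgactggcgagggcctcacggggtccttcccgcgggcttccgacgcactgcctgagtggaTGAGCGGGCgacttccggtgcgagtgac
Psmd5, chr2:34870963-34871212, minus strand: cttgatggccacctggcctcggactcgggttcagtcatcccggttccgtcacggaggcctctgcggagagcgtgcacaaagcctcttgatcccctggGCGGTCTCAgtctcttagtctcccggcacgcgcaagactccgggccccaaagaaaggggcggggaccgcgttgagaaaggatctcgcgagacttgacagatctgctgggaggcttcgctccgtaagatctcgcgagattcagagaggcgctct
Psmd12, a lid gene, rose by 0.91 (SE 0.06, adjusted p = 4.38e-08). Its values were 0.57, 0.51 and 0.48 in anti-CD3 cells, against -0.41, -0.40 and -0.35 in PBS cells. Psmd5, which encodes a chaperone of the base, had values of -0.01, 0.06 and -0.01 in anti-CD3 cells, against 0.04, 0.03 and 0.09 in PBS cells. Its groups overlapped, and its change was -0.04 (adjusted p = 0.664, 95% interval -0.15 to 0.08).

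In the core particle 12 of 16 rows were higher. The alpha ring had 7 of 8. Psma7, an alpha ring gene at chr2:180036367-180042464, had values of 0.39, 0.43 and 0.46 in anti-CD3 cells, against -0.45, -0.50 and -0.61 in PBS cells, a change of 0.94 (SE 0.06, 1.92-fold, limma adjusted p = 4.89e-08). Psma2, of the same ring, followed at 0.72. Psma8 was called at 0.23 (adjusted p = 0.0223), although its groups overlapped. Its values were 0.26, 0.05 and 0.25 in anti-CD3 cells, against -0.11, 0.07 and -0.11 in PBS cells. The call was lost without replicate 1 or 3 of anti-CD3 or replicate 1 or 3 of PBS, at adjusted p up to 0.0931. The 2 rows of Psma5 differed: the first gave 0.45 (adjusted p = 0.00978) and the second -0.09 (0.239), and neither was at 8 or above on all arrays. The first row lost its call without the first PBS array (0.34, adjusted p = 0.0504), and the mean of both rows gave 0.18 (0.0543).

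The beta ring had 5 of 8 rows higher. These included all 3 genes of the standard catalytic subunits. Psmb7, which carries the trypsin-like activity, had values of 0.37, 0.32 and 0.45 in anti-CD3 cells, against -0.49, -0.26 and -0.60 in PBS cells, a change of 0.83 (SE 0.08, adjusted p = 1.51e-06). Psmb5, which carries the chymotrypsin-like activity, had values of 0.24, 0.33 and 0.47 in anti-CD3 cells, against -0.43, -0.27 and -0.20 in PBS cells, a change of 0.65 (SE 0.08, adjusted p = 1.75e-05). Psmb6, which carries the caspase-like activity, had values of 0.32, 0.29 and 0.14 in anti-CD3 cells, against -0.14, -0.16 and -0.18 in PBS cells, a change of 0.41 (SE 0.06, adjusted p = 9.86e-05). None of the 3 overlapped between groups. Among the non-catalytic subunits Psmb2 rose by 0.87 and Psmb4 by 0.44. Psmb1 lay on a row at 8 or above on all arrays and had values of 0.09, 0.01 and -0.10 in anti-CD3 cells, against 0.10, 0.03 and 0.00 in PBS cells. Its change was -0.04 (adjusted p = 0.689), and the 95% interval, -0.18 to 0.10, left out the changes of the 5 raised beta ring genes. Psmb3, at 0.02, and Psmb11, at -0.00, were not called on dimmer rows.

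The assembly factors were read in 2 sets by role. The chaperones of the core's alpha ring were called higher: Psmg2 on its first row by 0.94 (SE 0.07, adjusted p = 1.79e-07), Psmg4 by 0.84, Psmg1 by 0.83 and Psmg3 by 0.27 (adjusted p = 0.0267). Psmg2 had values of 0.70, 0.59 and 0.54 in anti-CD3 cells, against -0.35, -0.35 and -0.30 in PBS cells. Its second row had a change of -0.12 (adjusted p = 0.362), and the mean of both rows gave 0.41 (8.67e-05). Psmg3 lost its call without the first or second anti-CD3 array or the second PBS array (adjusted p up to 0.11). The chaperones of the base were not called: Psmd9 had a change of 0.14 (adjusted p = 0.196), Psmd10 0.09 (0.404), and Psmd5 the value given above. The difference between the 2 sets was not tested. Psmc3ip, at 0.20, and Psme3ip1, at 0.05, were not called either, although Psmc3ip passed without replicate 3 of PBS (0.26, adjusted p = 0.0343).

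**Figure D2:**
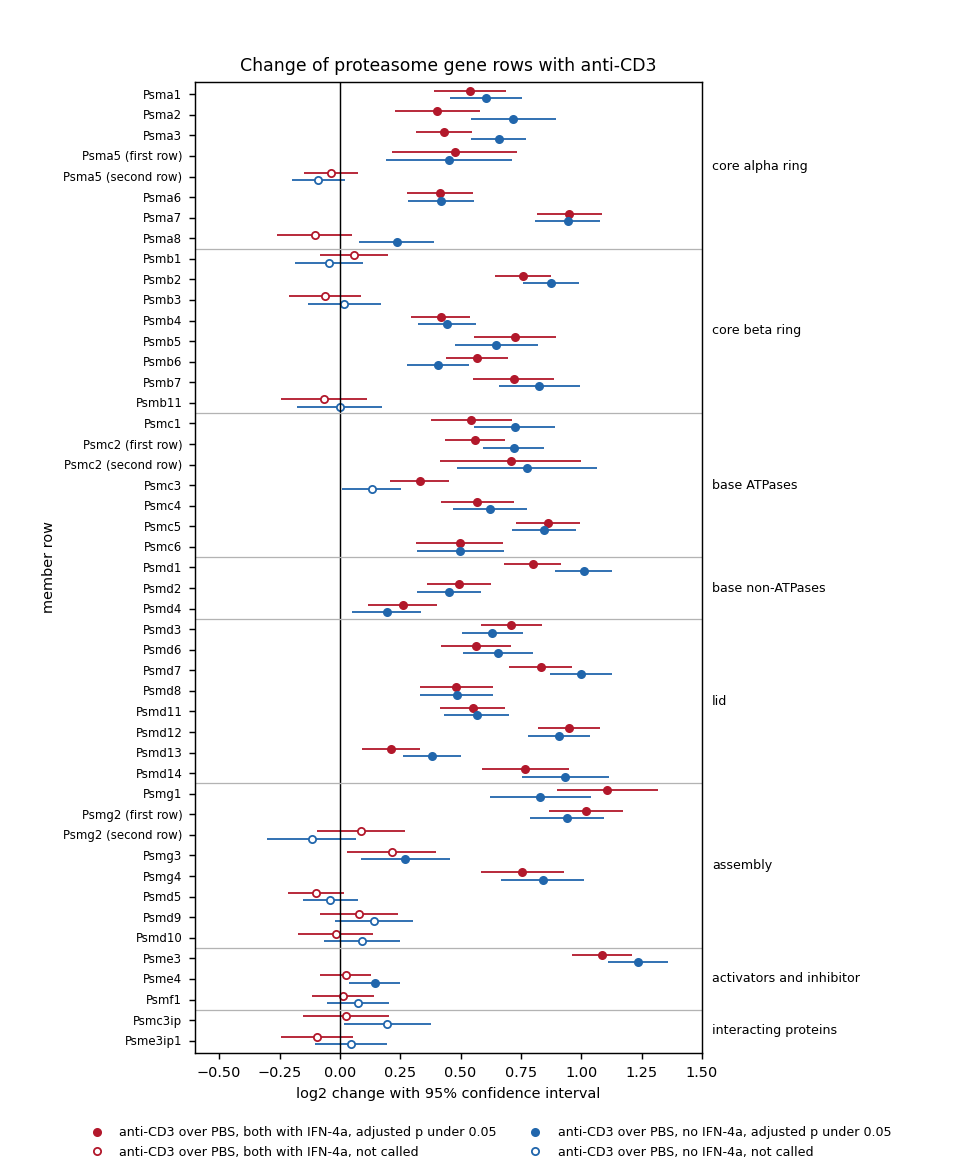
Log2 change with anti-CD3 over PBS (horizontal) of each of the 47 rows, with IFN-4a present (red) and absent (blue), as point and 95% confidence interval. Filled points passed the threshold; in the lid all points are filled, from 0.21 to 0.999, and the base chaperones Psmd5, Psmd9 and Psmd10 lie near 0 in both comparisons.

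The second comparison asked the same in the presence of IFN-4a. Its group means came from 6 arrays that were in neither group of the first comparison. Both comparisons shared each row's error estimate, which was fitted over all arrays, so their calls are not independent. Of the 47 rows 33 were higher in anti-CD3 with IFN-4a cells than in PBS with IFN-4a cells and 0 were lower (70.2%). Over all rows 27.3% were called, 12.8% higher and 14.5% lower. The median change was 0.49, against -0.03 over all rows. Among rows at 8 or above on all arrays, 27 of 33 proteasome rows were higher, against 30.4% of all such rows. The arrays of both groups did not overlap in 34 rows that were higher and 2 that were lower, where 16% and 22% of all rows showed the same. Of the 35 rows called without IFN-4a, 32 were also called here, or 91.4% of those and 97% of the 33. Over all rows the corresponding shares were 79.8% and 86.5%. All 18 rows of base and lid were higher, and 11 of the 16 of the core. Psma8, Psme4 and Psmg3 were called only without IFN-4a, and Psmc3 only with it, at 0.33 (adjusted p = 0.00041). The difference between both comparisons, which is the interaction test, was not called for any of these 4 genes or for any other proteasome row.

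Psme3 had values of 0.60, 0.48 and 0.55 in anti-CD3 with IFN-4a cells, against -0.52, -0.50 and -0.61 in PBS with IFN-4a cells, a change of 1.09 (SE 0.06, 2.12-fold, limma adjusted p = 6.63e-09). Psmg1 showed the largest change, at 0.37, 0.34 and 0.26 in anti-CD3 with IFN-4a cells, against -0.69, -1.001 and -0.66 in PBS with IFN-4a cells. This was 1.11 on the log2 scale (SE 0.10, 2.15-fold, adjusted p = 8.59e-07), beside 0.83 without IFN-4a. In both genes the groups were far apart. Psma7 changed by 0.95, Psmd12 by 0.95, Psmc5 by 0.86, Psmd7 by 0.83 and Psmd1 by 0.80. The catalytic genes Psmb5, Psmb7 and Psmb6 changed by 0.73, 0.72 and 0.57.

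The third comparison asked what IFN-4a did in cells not given anti-CD3. Of the 47 proteasome rows 3 were higher and 3 lower in PBS with IFN-4a cells than in PBS cells, or 12.8%. This was close to the share over all rows, of which 12.2% were called, 4.17% higher and 8.08% lower. Among rows at 8 or above on all arrays, 4 of 33 proteasome rows were called (12.1%), against 24.9% of all such rows. The median change of the proteasome rows was 0.02, against -0.01 over all rows. The higher ones were Psma2 and Psma3, of the alpha ring, and Psme4. Psma2 had values of -0.07, -0.15 and -0.34 in PBS with IFN-4a cells, against -0.68, -0.43 and -0.56 in PBS cells, a change of 0.37 (SE 0.08, 1.29-fold, limma adjusted p = 0.0102). Psma3 changed by 0.20 (adjusted p = 0.0238) and Psme4 by 0.22 (0.0109).

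The lower ones were 2 alpha ring chaperone genes and an ATPase gene. Psmg1 had values of -0.69, -1.001 and -0.66 in PBS with IFN-4a cells, against -0.50, -0.26 and -0.35 in PBS cells, a change of -0.41 (SE 0.10, adjusted p = 0.0136). Psmg2 on its first row had values of -0.52, -0.79 and -0.64 in PBS with IFN-4a cells, against -0.35, -0.35 and -0.30 in PBS cells, a change of -0.32 (SE 0.07, adjusted p = 0.0107). Neither overlapped between groups, and both rows were among the dimmer ones. The second row of Psmg2 had a change of -0.12 (adjusted p = 0.394). Psmc3 had values of -0.32, -0.21 and -0.30 in PBS with IFN-4a cells, against -0.09, -0.01 and -0.09 in PBS cells, a change of -0.21 (adjusted p = 0.0257). Psmb3, at 0.19 (adjusted p = 0.0898), Psmd3, a lid gene at -0.17 (0.08), and Psmd1, at 0.10 (0.293), did not pass. Each of the 6 calls except that of Psma2 was lost when 1 array was left out. Leaving out replicate 1 of PBS with IFN-4a gave 1 higher row. Leaving out replicate 2 of PBS with IFN-4a, or replicate 2 of PBS, gave 1 lower row. Psma3 lost its call without replicate 1 or 2 of either group, and Psmc3 without replicate 1 or 3 of PBS with IFN-4a or replicate 2 of PBS. Psmg1 lost it without replicate 2 of either group, Psmg2 without replicate 2 of PBS with IFN-4a, and Psme4 without replicate 1 of PBS with IFN-4a. Psmg2 also lost it after quantile normalization (-0.22, adjusted p = 0.0521), and Psma3 (0.06) and Psmc3 (0.0579) when only both groups of the comparison were fitted. Without 1 array the adjusted p of the lost calls was 0.051 to 0.097, and none of the 6 was under 0.01 with all arrays.

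**Figure D3:**
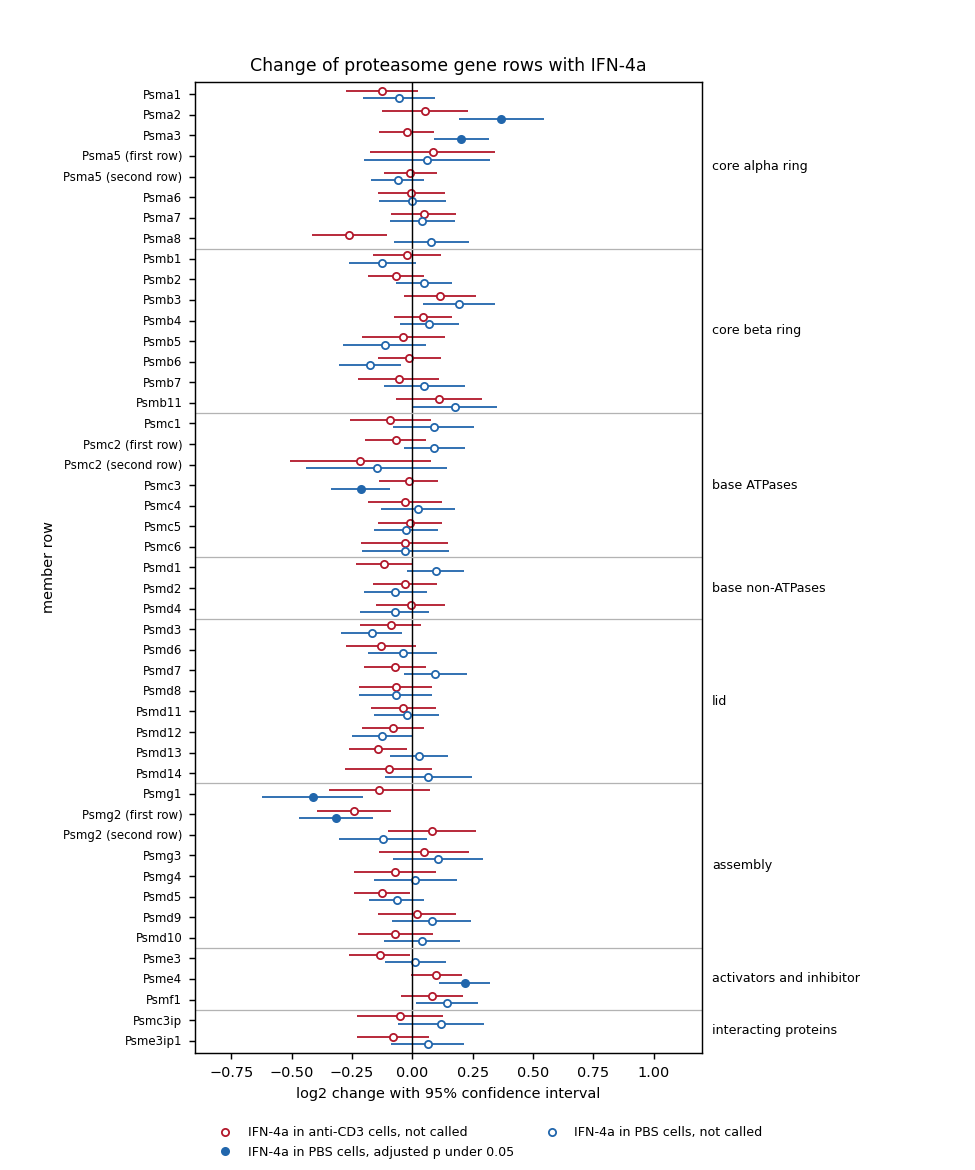
Log2 change with IFN-4a (horizontal) of each of the 47 rows, in anti-CD3 cells (red) and in PBS cells (blue), as point and 95% confidence interval. The 6 filled points, all in PBS cells, passed the threshold, and the points of most rows lie within 0.2 of 0.

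The fourth comparison asked what IFN-4a did in cells given anti-CD3. No proteasome row passed the limma threshold in either direction. An unadjusted limma p under 0.05 was found for 5 of the 47, against 3494 of all 23521 rows. Over all rows 3.32% were called, 1.97% higher and 1.36% lower. Among rows at 8 or above on all arrays 0 of 33 proteasome rows were called, against 7.42% of all such rows. The changes of the 47 rows ran from -0.26 to 0.11. Their median was -0.037, against -0.003 over all rows and -0.057 over rows at 8 or above on all arrays. Of the 47, 11 lay above 0, against 11469 of all 23521 rows and 1474 of the 5039 at 8 or above. The lowest adjusted p were those of Psma8, at -0.26 (0.0741), and of the first row of Psmg2, at -0.24 (0.0971). Psma8 passed after quantile normalization (-0.26, adjusted p = 0.0457) and without the second anti-CD3 array (-0.33, adjusted p = 0.034). The interaction subtracts the IFN-4a change in PBS cells from that in anti-CD3 cells. It was also called by limma in 0 rows, against 0.855% of all rows (0.264% higher and 0.591% lower). Here 5 of the 47 proteasome rows had an unadjusted p under 0.05, against 2542 of all 23521 rows. The lowest adjusted p of a proteasome row was 0.196, for Psma8 at -0.34.

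The interferon-inducible genes left out of the set were measured in the same cells. In PBS cells IFN-4a raised 4 of the 5: Psmb10 by 1.13 (SE 0.06, adjusted p = 1.91e-08), Psmb9 by 0.69, Psme1 by 0.68 and Psmb8 by 0.66. In anti-CD3 cells it raised 2, Psmb10 by 0.70 and Psmb8 by 0.46. Anti-CD3 without IFN-4a raised 3, Psme1 by 0.67, Psmb9 by 0.48 and Psmb10 by 0.21. Anti-CD3 with IFN-4a raised none, and Psmb10 was lower at -0.21 (adjusted p = 0.0177). The fifth gene, Psme2, lay on a row below 8 on at least some arrays and had no called change. Of all rows, 4.17%, 1.97%, 13.9% and 12.8% were called higher in these comparisons, in the same order.

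Each immunoproteasome catalytic gene was set against the standard one whose place its product takes, as the difference of their centred log2 values within each array. For Psmb8 minus Psmb5 this difference was 0.77 ± 0.09 in PBS with IFN-4a cells, against -0.00424 ± 0.00999 in PBS cells (SD, n = 3). For Psmb10 minus Psmb7 it was 0.95 ± 0.04 in PBS with IFN-4a cells, against -0.12 ± 0.19 in PBS cells. For Psmb9 minus Psmb6 it was 0.52 ± 0.05 in PBS with IFN-4a cells, against -0.34 ± 0.15 in PBS cells. The arrays of both groups did not overlap for any of the 3 pairs. With anti-CD3 in the absence of IFN-4a the differences went the other way for 2 pairs. Psmb8 minus Psmb5 was -0.60 ± 0.05 in anti-CD3 cells, a difference of -0.59 from the PBS cells. Psmb10 minus Psmb7 was -0.74 ± 0.01 in anti-CD3 cells, a difference of -0.61. Psmb9 minus Psmb6 was -0.27 ± 0.12 in anti-CD3 cells, which overlapped the PBS cells. With IFN-4a present, anti-CD3 moved the Psmb8, Psmb10 and Psmb9 pairs by -0.86, -0.93 and -0.58, none with overlap. In anti-CD3 cells IFN-4a moved the same pairs by 0.50, 0.76 and 0.21, and only the Psmb9 pair overlapped. A two-sided exact permutation test over 3 against 3 arrays cannot go below 0.1. That p was reached in 10 of the 12 comparisons of a pair (0.12 after adjustment over the 12), so that none could pass the threshold.

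**Figure D4:**
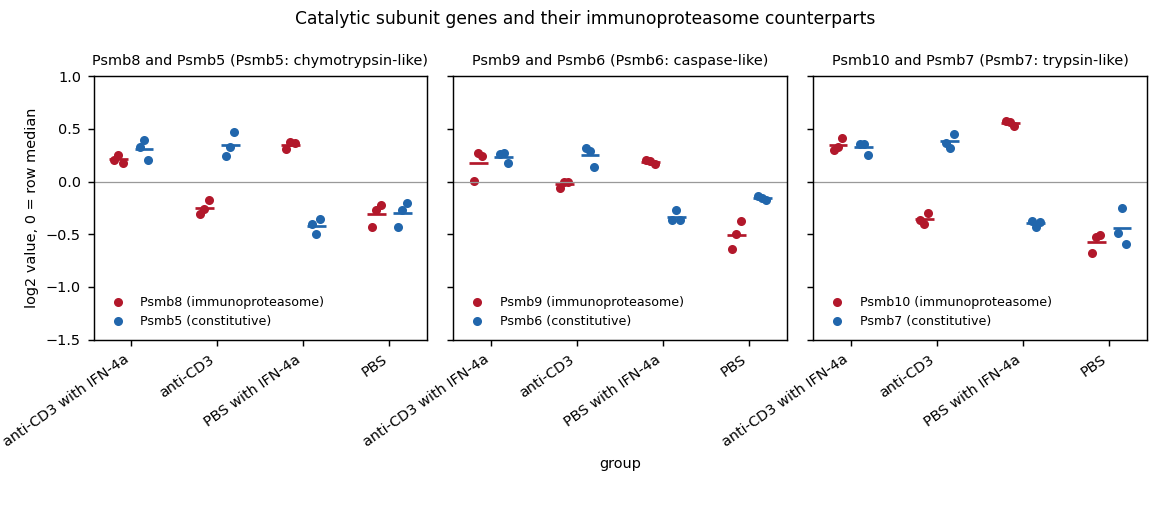
Centred log2 values of the immunoproteasome genes Psmb8, Psmb9 and Psmb10 (red) and of the standard catalytic genes Psmb5, Psmb6 and Psmb7 (blue) on each array, by group, with the group means as bars. The standard genes lie above 0 in both anti-CD3 groups and below 0 in both PBS groups, while Psmb8 and Psmb10 lie above 0 in both groups with IFN-4a and below 0 in both without.

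Other genes of the pathway were read from lists outside the proteasome names. Of 12 associated proteins and assembly factors, anti-CD3 without IFN-4a raised 8 and lowered 2 (83.3%). Over all rows 31.4% were called, and 69.9% of those at 8 or above on all arrays. Pomp, whose product matures the core particle, had values of 0.68, 0.69 and 0.58 in anti-CD3 cells, against -0.72, -0.74 and -0.81 in PBS cells. Its groups were far apart, and its change was 1.41 (SE 0.07, limma adjusted p = 2.52e-09), beside 1.23 for Psme3. Txnl1, the gene of a thioredoxin-like protein that binds the regulatory particle, changed by 0.97 with a wide error (SE 0.31, adjusted p = 0.0278). Its values were 0.84, 0.86 and 0.05 in anti-CD3 cells, against -0.17, 0.03 and -1.01 in PBS cells, and in all 4 groups the array numbered 3 was the lowest. The genes that fell were Akirin2, whose product brings proteasomes into the nucleus, by 0.22, and Zfand2a by 0.18. With IFN-4a present 7 of the 12 were higher and 1 lower (66.7%), against 27.3% of all rows called. IFN-4a itself changed 0 of the 12 in PBS cells and 0 in anti-CD3 cells, against 12.2% and 3.32% of all rows.

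Of 10 rows for regulators of proteasome gene transcription, 4 were higher and 2 lower with anti-CD3 alone. Mafk, the gene of a small Maf partner protein, rose by 0.81 (SE 0.07, adjusted p = 5.1e-07), and Ngly1, whose product removes sugars from the Nfe2l1 protein, fell by 0.78 (SE 0.09, adjusted p = 8.44e-06). Nfe2l1 itself had values of 0.10, 0.11 and 0.06 in anti-CD3 cells, against -0.11, -0.06 and -0.11 in PBS cells, a change of 0.18 (SE 0.05, adjusted p = 0.00787). Nfe2l2, the gene of the oxidative stress factor, changed by -0.39 (adjusted p = 0.000144). Bach1, the gene of a repressor that competes with the Nfe2l2 protein, rose by 0.60 (adjusted p = 1.2e-05). Of 9 rows for ubiquitin activation, shuttle and segregase genes, 6 were higher and 1 lower (77.8%). They were led by Uba6, which encodes a ubiquitin-activating enzyme, at 0.99, and Rad23b, a shuttle factor gene, at 0.58. In PBS cells IFN-4a changed 3 of the 10 regulator rows (30%), against 12.2% of all rows. Keap1, whose product directs the Nfe2l2 protein to degradation, was higher by 0.77 on the second of its rows (adjusted p = 2.25e-06) and had a change of 0.19 on the first (0.289), both dimmer rows. Mafk was higher by 0.27, and Bach1 had a change of -0.27 (adjusted p = 0.0233). Of the 9 ubiquitin and shuttle rows IFN-4a changed 1 in PBS cells (11.1%), close to the 12.2% of all rows. It was Ubqln2, another shuttle factor gene, at -0.25 (adjusted p = 0.0156).

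Some markers changed with anti-CD3. Of the 6 markers of CD8 T cells 4 were lower in anti-CD3 cells than in PBS cells (66.7%), and 0 were higher. Of the 5039 rows at 8 or above on all arrays, 1688 were higher and 1835 lower in that comparison (69.9%). The general T cell genes Thy1, Cd3d and Cd3g changed by -1.19, -0.64 and -0.26, and Cd8b1 by -0.34. Cd8a, at 0.08 (limma adjusted p = 0.273), and Cd3e, at 0.01 (0.884), were not called. Of the 29 markers of other cell types 2 were higher and 5 lower (24.1%), and none of their rows was at 8 or above on all arrays. The share called was 31.4% over all rows and 20.9% over the dimmer rows. With IFN-4a present 4 of the 6 were lower with anti-CD3 (66.7%), against 65.7% of rows at 8 or above called. Of the 29 there were 3 higher and 4 lower (24.1%), against 27.3% of all rows. IFN-4a in PBS cells lowered 2 of the 6 (33.3%), against 24.9% of rows at 8 or above called. It changed 0 of the 29, against 12.2% of all rows. A summed level cannot be given on centred values. The part of these markers in the results was not tested.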

How the data were processed

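Mouse CD8+ T cells were measured on 12 single-colour arrays labelled with a WT Plus kit, per the labels' protocols. The authors deposited log values, taken as log2, centred on each row's median (largest absolute row median 5e-07; array medians -0.0157 to 0.0165). Not given in the sources used here are the log base, summarization, normalization and software; with a natural log every fold would be larger. The platform annotation gave 1 symbol to 23521 of 33793 rows, several to 1814 and none to 8458. All 44 proteasome genes matched RefSeq (GRCm38.p6) by Entrez identifier, with the same symbol. Precision is limited by the number of arrays.

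limma 3.58.1 in R 4.3.3 fitted 4 group means over all 12 arrays and 23521 rows without a filter on low values (8 residual and 4.95 prior degrees of freedom). Moderated two-sided tests were adjusted by Benjamini-Hochberg within each of 5 comparisons and called under 0.05. Rows were kept apart because choosing 1 row per gene on centred values can depend on the changes. A row counted as at 8 or above where its decimals on every array were multiples, within 0.1 step, of the coarser step of single-precision numbers from 8 up. The fit was also run on simulated data with independent noise on each array, which cannot show the effect of structure shared between arrays. The members, lists and tests were chosen with earlier results of these data known. Named were the catalytic genes, per role the 2 largest changes with anti-CD3 alone and the largest with IFN-4a in PBS cells. Also named were calls against the majority, genes with several rows, Psma8 and Psmb11, and the 2 largest per list and comparison. Names added after their values were seen are Psmb1, Psmb4, Psmc1, Psmd4, Psmd13, Psmd12, Psmg3, the base chaperones, Psmf1 and the interacting proteins. Those added from the lists are Psme2, Akirin2, Zfand2a, Nfe2l1, Nfe2l2, Keap1, Bach1 and the markers. Of 43 list genes 34 were measured. Alternatives were the 2 groups alone, quantile normalization, array weights, another variance prior, 1 value per gene by 2 rules, all rows, a threshold of 0.01, a replicate block and leaving out each array.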

Additional observations from a re-analysis of the deposited data

Results flagged for a closer look

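Rows with several symbols stood outside the comparisons above, and 2 of 3 such rows that include a proteasome symbol changed with anti-CD3 alone (limma). The first, with 2 symbols, changed by -0.298 (adjusted p = 0.0178). The second, also with 2 symbols and at 8 or above on all arrays, changed by 0.835 (adjusted p = 2.54e-07), with values of 0.36, 0.39 and 0.33 in anti-CD3 cells, against -0.53, -0.51 and -0.39 in PBS cells. Neither is assigned to a gene.

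The IFN-4a change differed between anti-CD3 and PBS cells by the interaction test for 201 of the 23521 rows, 0 of them proteasome rows. Of the comparison lists and markers, 3 genes were among them. The difference, anti-CD3 cells minus PBS cells, was -0.531 for Psme1 (0.15 in anti-CD3 cells, against 0.68 in PBS cells, interaction adjusted p = 0.00691), and -0.423 for Psmb10 (0.70 in anti-CD3 cells, against 1.13 in PBS cells, adjusted p = 0.0351). For the T cell marker Thy1 the difference was 0.574 (-0.06 in anti-CD3 cells, against -0.63 in PBS cells, adjusted p = 0.00939). Groups of 3 arrays are too small for a test of single arrays that stand apart.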

How the results depend on the processing

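With anti-CD3 alone the count of higher rows was 31 to 35 when 1 array was left out and 31 to 36 under the other alternatives, and with IFN-4a present 33 in every leave-one-out fit and 30 to 34 otherwise; 0 rows were lower in any of them. With IFN-4a in PBS cells, leaving out 1 array gave 1 to 4 higher and 1 to 4 lower rows, and an adjusted p under 0.01 left 0 higher and 0 lower. With IFN-4a in anti-CD3 cells, 0 rows were higher throughout and 0 to 1 lower without 1 array; quantile normalization made 1 lower (Psma8). The interaction had 0 calls in every alternative. Without 1 array, Psmb6 (-0.17, adjusted p = 0.0482 without anti-CD3 replicate 3) and Psmc1 (0.20, 0.0389 without PBS with IFN-4a replicate 3) passed with IFN-4a in PBS cells. No called change turned sign. Among changes that were not called, 135 of 3305 alternative values did, none over 0.124 in size. The median of all rows moved by less than 0.1 under quantile normalization. Same-numbered arrays deviated with correlations of -0.0787 to 0.266, over 0.1 in 8 of 18 pairs, and 9 of 12 arrays correlated best with their own number. The labels do not say what the numbers share, so the main fit did not pair them. Its p-values take no account of structure shared by number. A replicate block gave 33 higher rows with anti-CD3 alone, where Psmd4 (adjusted p = 0.0593) and Psme4 (0.0592) lost their calls, and 33 with IFN-4a present, and 3 higher and 3 lower with IFN-4a in PBS cells. With only both groups of the comparison fitted, anti-CD3 alone lost the calls of Psma8 (0.0609), Psmd4 (0.083) and Psme4 (0.0833). Psmd4 also lost it over all rows, Psme4 with the other variance prior and Psma8 with array weights. The causes were not tested. Centring left no signal over background to assess.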
